A study of Mus musculus with 18 samples.

Results

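The 10 genes *Pecam1*, *Cdh5*, *Cldn5*, *Kdr*, *Tek*, *Tie1*, *Flt1*, *Esam*, *Egfl7* and *Slco1a4* are vessel genes of the endothelium, and they were read from 4 RNA-seq tables of newborn mouse brain by gene name, whatever their values. All 10 were found in each table, among 23138 named genes for hippocampi, 23398 for neurospheres and 54429 in each of the tables for cortices and *Rnf2* hippocampi. The 18 libraries, all of postnatal day 0, comprised 3 control and 3 *Kdm2b* Emx1-∆CxxC cKO hippocampi, 2 and 2 neurosphere cultures grown from hippocampal progenitors (*Kdm2b* control and cKO), 2 and 2 cortices (*Kdm2b* control and cKO), and 2 control and 2 *Rnf2* Emx1-cKO hippocampi. In the *Kdm2b* cKO, Cre expressed from *Emx1* removes the exon that encodes the CxxC zinc finger with which KDM2B binds chromatin, and in the *Rnf2* cKO the same Cre removes Ring1B, a ubiquitin ligase of Polycomb repressive complex 1. Controls carried floxed *Kdm2b* (Kdm2bfl/+ or Kdm2bfl/fl) or floxed *Rnf2* (Rnf2fl/+ or Rnf2fl/fl), and the labels do not tell heterozygous from homozygous controls. The labels do not say whether a library came from 1 animal or from pooled animals, so p-values measure the spread between these libraries. Because *Emx1*-Cre is active in dorsal forebrain progenitors and their progeny, endothelial cells lie outside the lineage in which the alleles were deleted.

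Endothelial cells line every vessel of the brain, where they are sealed by tight and adherens junctions into the blood-brain barrier. They enter the neural tube from a plexus on its surface, follow VEGF released by neural progenitors, and acquire barrier properties under WNT7A and WNT7B from the same progenitors. The 10 genes cover 4 roles. *Cldn5* (claudin 5, the main tight junction protein of brain endothelium), *Cdh5* (VE-cadherin, of the adherens junction), *Pecam1* and *Esam* (adhesion molecules at the contacts between endothelial cells) are junction genes. *Kdr* and *Flt1* (the VEGF receptors VEGFR2 and VEGFR1, the latter also a VEGF trap) and *Tek* and *Tie1* (the angiopoietin receptor TIE2 and its partner) are receptor genes. *Egfl7* encodes a secreted protein of growing vessels, and *Slco1a4* an organic anion transporter of the barrier, which is also found in choroid plexus.

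The annotation supplied with the cortical values places the genes, all protein coding, on GRCm38. *Pecam1* lies at chr11:106654217-106750628 (minus strand), *Cdh5* at chr8:104101625-104144511, *Cldn5* at chr16:18776847-18778262, *Esam* at chr9:37528078-37538319, *Kdr* at chr5:75932827-75978458 (minus strand) and *Flt1* at chr5:147561604-147726011 (minus strand). *Tek* at chr4:94739289-94874976 and *Tie1* at chr4:118471191-118490061 (minus strand) share a chromosome, *Egfl7* lies at chr2:26580014-26593120 and *Slco1a4* at chr6:141805440-141856199 (minus strand). RefSeq promoters (build GRCm38.p6) were at hand for 7 of the 10 genes, with 9 starts, and not for *Pecam1*, *Cdh5* and *Esam*. The 250 bases before the start are shown for *Cldn5* and *Egfl7*, which were called higher in the cKO cortex, and for *Tie1* and *Flt1*, which were not. Capitals mark AGGAAG, a core bound by ETS factors, and CTTTGAT, a core bound by TCF/LEF factors, or the reverse complement of either.
*Cldn5*, chr16:18776597-18776846, plus strand: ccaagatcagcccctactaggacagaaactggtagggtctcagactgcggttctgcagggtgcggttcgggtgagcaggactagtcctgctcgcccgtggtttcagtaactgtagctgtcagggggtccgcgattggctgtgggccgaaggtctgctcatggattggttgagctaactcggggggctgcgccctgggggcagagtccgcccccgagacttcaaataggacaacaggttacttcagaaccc
*Egfl7*, first of 3 starts, chr2:26580833-26581082, plus strand: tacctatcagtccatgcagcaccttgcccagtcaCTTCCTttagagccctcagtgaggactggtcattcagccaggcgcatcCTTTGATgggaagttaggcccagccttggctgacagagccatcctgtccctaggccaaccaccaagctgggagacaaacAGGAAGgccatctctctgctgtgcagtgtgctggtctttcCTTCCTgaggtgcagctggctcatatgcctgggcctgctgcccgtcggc
*Tie1*, chr4:118489850-118490099, minus strand: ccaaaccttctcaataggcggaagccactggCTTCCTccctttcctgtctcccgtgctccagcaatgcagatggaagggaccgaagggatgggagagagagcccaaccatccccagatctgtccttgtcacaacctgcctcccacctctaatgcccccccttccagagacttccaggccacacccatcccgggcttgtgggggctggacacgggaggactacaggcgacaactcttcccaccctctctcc
*Flt1*, chr5:147726012-147726261, minus strand: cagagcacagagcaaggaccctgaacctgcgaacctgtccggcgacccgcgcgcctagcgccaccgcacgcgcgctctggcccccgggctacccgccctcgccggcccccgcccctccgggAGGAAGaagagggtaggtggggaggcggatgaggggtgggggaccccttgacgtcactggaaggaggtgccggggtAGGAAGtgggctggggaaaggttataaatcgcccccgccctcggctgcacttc
The *Cldn5* window held neither motif, *Tie1* held AGGAAG 1 time, *Flt1* held it 2 times, and the first *Egfl7* start held it 3 times and CTTTGAT 1 time, both strands counted. AGGAAG was present upstream of 5 of the 9 starts (genes *Egfl7*, *Flt1*, *Slco1a4* and *Tie1*) beside 29.5% of all 32851 windows of this length, and CTTTGAT upstream of 1 of 9 beside 3.21%. *Egfl7* has 3 of the 9 starts. Counted by gene, AGGAAG was present for 4 of 7 beside 32.3% of 27025 genes, and CTTTGAT for 1 of 7 beside 3.72%. Of the genes called higher in the cKO cortex, *Cldn5* and *Tek* held neither motif in this window and *Egfl7* held both, while *Cdh5* had no promoter at hand.

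Levels are deposited FPKM (fragments counted per kilobase of a transcript and per library size), and the 4 tables were normalized separately, so a level set across tables is a description. In Cufflinks output, *Pecam1* shares an entry with its neighbour *Polg2*, a subunit of the mitochondrial DNA polymerase, in hippocampi and neurospheres, and *Esam* shares an entry with *Vsig2* in hippocampi. Where the genes are listed apart, *Polg2* made up 37.2% to 44.5% of the sum of both in cortices and 25.8% to 33.5% in *Rnf2* hippocampi, and *Vsig2* 13.3% to 20.4% and 17.0% to 44.8% of its sum with *Esam*. Depth is unknown for hippocampi and neurospheres. In the other tables, reads or read pairs could be recovered from the FPKM values (18480515 to 21905224 per cortical library and 14654894 to 16334420 per *Rnf2* library), and 9 of the genes, all but *Slco1a4*, had between 148 and 1108 reads each in cortices and between 70 and 1248 in *Rnf2* hippocampi. A value per gene does not show the loss of 1 exon: *Kdm2b* was at 28.1 to 31.9 FPKM in control and 26.2 to 28.3 in cKO hippocampi. *Rnf2* was at 32.3 and 30.8 FPKM in its controls against 28.5 and 27.8 in its cKO, and which part of *Rnf2* its deletion removes was not determined here.

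**Figure D1:**
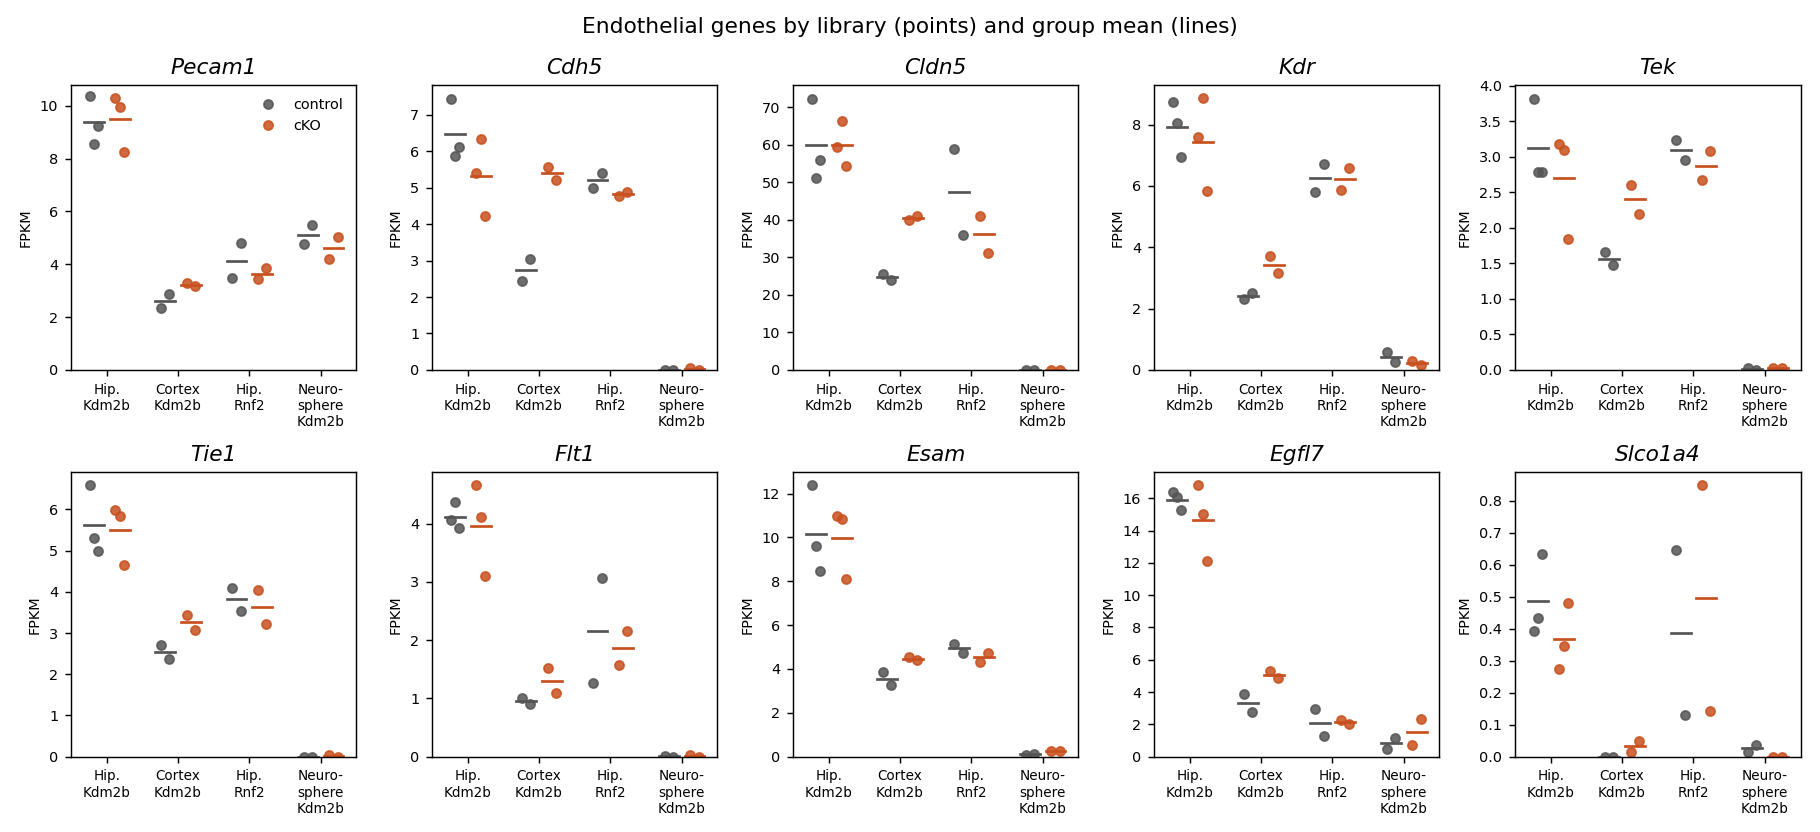
FPKM of each of the 10 genes (y axis, from 0) in the 18 libraries, by table (x axis; Hip., hippocampus); points are libraries, horizontal lines group means, grey control and orange cKO. In cortices every cKO point lies above both controls, in hippocampi the groups overlap, and in neurospheres the genes lie near 0 except in the entry that *Pecam1* shares with *Polg2* and in *Egfl7*.

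*Cldn5* was the most abundant of the genes in every tissue library. It made up 45.6% to 52.8% of the summed FPKM of the 10 genes in hippocampi, 55.4% to 60.0% in cortices and 50.5% to 65.1% in *Rnf2* hippocampi, and its hippocampal level stood at the 93.9th to 96.0th percentile of named genes. In control hippocampi, *Egfl7* followed with a mean of 15.9 FPKM, then the *Esam* entry (10.2), the *Pecam1* entry (9.39), *Kdr* (7.91), *Cdh5* (6.47), *Tie1* (5.63), *Flt1* (4.12), *Tek* (3.13) and *Slco1a4* (0.487). Of the neighbours in this order, the control libraries of *Esam* and *Pecam1*, *Kdr* and *Pecam1*, *Kdr* and *Cdh5*, *Cdh5* and *Tie1* overlapped. *Cldn5* and *Egfl7* stood clear of the genes below them. In control cortices the order below *Cldn5* (24.7 FPKM) was *Esam* (3.56), *Egfl7* (3.32), *Cdh5* (2.75), *Pecam1* (2.62), *Tie1* (2.54), *Kdr* (2.42), *Tek* (1.57) and *Flt1* (0.959), and *Slco1a4* was at 0 reads in both. *Esam* and *Egfl7*, *Egfl7* and *Cdh5*, *Cdh5* and *Pecam1*, *Pecam1* and *Tie1*, *Tie1* and *Kdr* overlapped, while *Cldn5*, *Tek* and *Flt1* stood clear of their neighbours. In control *Rnf2* hippocampi *Egfl7* was the lowest of the 9 at 2.09 FPKM, below *Flt1* (2.16). A count of 0 reads allows up to 3 reads, or 0.0212 and 0.0220 FPKM at these depths (counting error only). The VEGF receptors were present at a *Kdr* to *Flt1* ratio of 1.63 to 2.15 in *Kdm2b* hippocampi and 2.31 to 2.90 in cortices. The *Tek* to *Tie1* ratio was 0.396 to 0.581 and 0.613 to 0.757. In *Rnf2* hippocampi these ratios were 2.19 to 4.598 and 0.660 to 0.954. Both *Rnf2* ranges lay above those of *Kdm2b* hippocampi, so these ratios do not separate hippocampus from cortex.

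In neurospheres, which are cultured progenitors, 8 of the 10 genes were under 0.5 FPKM on average. *Cldn5* was listed at 0 FPKM in all 4 libraries. *Cdh5* and *Tie1* were listed at 0 in 3 of 4 and at 0.0476 and 0.0347 FPKM in the first cKO library, *Flt1* and *Tek* reached at most 0.0311 and 0.0300 FPKM, and *Slco1a4* at most 0.0377. *Esam*, here an entry of its own, was at 0.0985 and 0.124 FPKM in controls and 0.255 and 0.250 in cKO. *Kdr* was at 0.584 and 0.262 against 0.298 and 0.158 FPKM. These genes were not tested. The *Pecam1* entry was at 4.76 and 5.47 FPKM in controls and 4.19 and 5.02 in cKO, a level that cannot be assigned to *Pecam1* or to *Polg2*. *Egfl7*, highest in the second cKO library, was at 0.498 and 1.16 against 0.705 and 2.34 FPKM. Neither tested gene was called (*Pecam1* entry, log2 fold change -0.13 ± 0.13 SE, *Egfl7* 0.41 ± 0.36), beside 11.4% of all genes called higher and 13.2% called lower in this comparison. Other vessel lists reached the filter in neurospheres for 14 of 23 barrier, 13 of 18 ligand and 12 of 17 receptor genes. It was 5 of 17 for mural and 3 of 24 for further endothelial genes. Mean sums of barrier, ligand and mural genes were 434, 232 and 78.4 FPKM in control neurospheres and 578, 210 and 77.1 in control hippocampi. Sums of these lists are therefore not those of vessel cells alone, and some of their entries are shared with neighbouring genes. In cKO neurospheres mural genes summed to 57.4 FPKM and meningeal genes, at 51.3 in controls, to 17.5. *Ramp2* was at 14.4 and 15.6 FPKM, *Cd93*, named with its values known, at 1.65 and 1.20 and *Plvap* at 3.35 and 8.66 (called higher, 1.15). Without the first cKO library *Egfl7* alone of the 10 genes was called higher (0.89), and without the second its value was -0.08. Red blood cell genes were listed at 0 in both controls and in the second cKO library, with a sum of 3.45 FPKM in the first, the library that also held the traces of *Cdh5* and *Tie1*.

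Vessel genes of the *Kdm2b* cKO hippocampus were compared with controls to ask whether the endothelium differed when the deletion was made in the neural lineage around it. None of the 9 genes tested was called, by a log2 fold change above 0.4 in size at an unadjusted p under 0.05 in limma, beside 3.89% of 13446 genes called higher and 2.25% called lower, and none had an adjusted p under 0.05 (beside 8.27% of genes) or an unadjusted p under 0.05 (beside 23%). Their median log2 fold change was -0.06 (all genes 0.01), 2 of 9 were above 0 and 7 below, and cKO and control libraries overlapped for each of them, beside 14.9% of all genes with every cKO library above every control and 14.3% with every one below. The summed level of the 10 genes was 142, 112 and 114 FPKM in controls and 125, 131 and 103 FPKM in cKO, a ratio of 0.971. Log2 fold changes here and below are of FPKM + 1, cKO minus control, and a gene of low level therefore changes by less on this scale than in FPKM.

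Among the junction genes, *Cdh5* gave the largest difference. It was at 7.44, 5.86 and 6.12 FPKM in controls and at 5.41, 6.32 and 4.22 in cKO, so that the second cKO library lay among the controls. Its log2 fold change was -0.25 ± 0.13 (SE, 95% confidence interval -0.55 to 0.05, adjusted p = 0.310). *Cldn5* was at 72.3, 51.1 and 56.0 FPKM in controls and 59.4, 66.2 and 54.3 in cKO. The 2 groups of *Cldn5* had nearly the same mean, 59.8 ± 11.1 and 60.0 ± 5.98 FPKM (SD, n = 3 each), and the interval of the log2 fold change ran from -0.25 to 0.28. The *Pecam1* entry was at 10.4, 8.54 and 9.24 against 10.3, 9.95 and 8.24 FPKM. The *Esam* entry was at 12.4, 9.63 and 8.45 against 11, 10.9 and 8.09 FPKM. Both entries overlapped between groups, with log2 fold changes of 0.01 ± 0.10 and -0.02 ± 0.14, and the part of *Polg2* and *Vsig2* in them could not be separated.

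The receptors, too, overlapped between groups. *Kdr* was at 8.72, 8.06 and 6.94 FPKM in controls and 7.61, 8.86 and 5.83 in cKO. *Flt1* was at 4.06, 4.37 and 3.92 against 4.66, 4.11 and 3.10 FPKM. For each VEGF receptor the cKO libraries held both the highest and the lowest of the 6 values. *Tek* was at 3.82, 2.78 and 2.78 against 3.18, 3.10 and 1.84 FPKM. *Tie1* was at 6.59, 5.31 and 4.99 against 5.98, 5.85 and 4.65 FPKM. The log2 fold changes were -0.09 ± 0.14 for *Kdr*, -0.06 ± 0.12 for *Flt1*, -0.17 ± 0.17 for *Tek* and -0.03 ± 0.12 for *Tie1* (SE). *Egfl7* was at 16.4, 16.1 and 15.3 against 16.8, 15.0 and 12.1 FPKM, a log2 fold change of -0.12 ± 0.10. *Slco1a4*, at 0.394, 0.433 and 0.634 against 0.273, 0.348 and 0.480 FPKM, was below the filter. Over the 9 genes the 95% intervals spanned from -0.55 at the lowest bound, for *Cdh5*, to 0.31 at the highest, for *Esam*, so these libraries bound each difference but do not show that the groups were alike.

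The sign of the median rested on 1 library. The third cKO library was the lowest of the 6 for 8 of the 10 genes, and the first control the highest for 6. Without the third cKO library 8 of the 9 genes lay above 0 and the median log2 fold change was 0.07. Other vessel and vessel-adjacent lists were lowest in the same library, with 24 further endothelial genes at a sum of 89.5 FPKM (the other 5 libraries from 96.1 to 108), mural cell genes at 60.8 (71.5 to 83.9) and meningeal fibroblast genes at 80.0 (92.0 to 116). Over the 6 libraries the sum of the 10 genes ran with that of the other endothelial genes (r = 0.97), mural cell genes (r = 0.92), barrier genes (r = 0.81) and meningeal genes (r = 0.79), and less with red blood cell genes (r = 0.28) or dorsal telencephalon genes (r = 0.08). These r are descriptions over 6 points that share depth and dissection. In bulk tissue, fewer endothelial cells and less RNA per endothelial cell cannot be told apart.

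**Figure D2:**
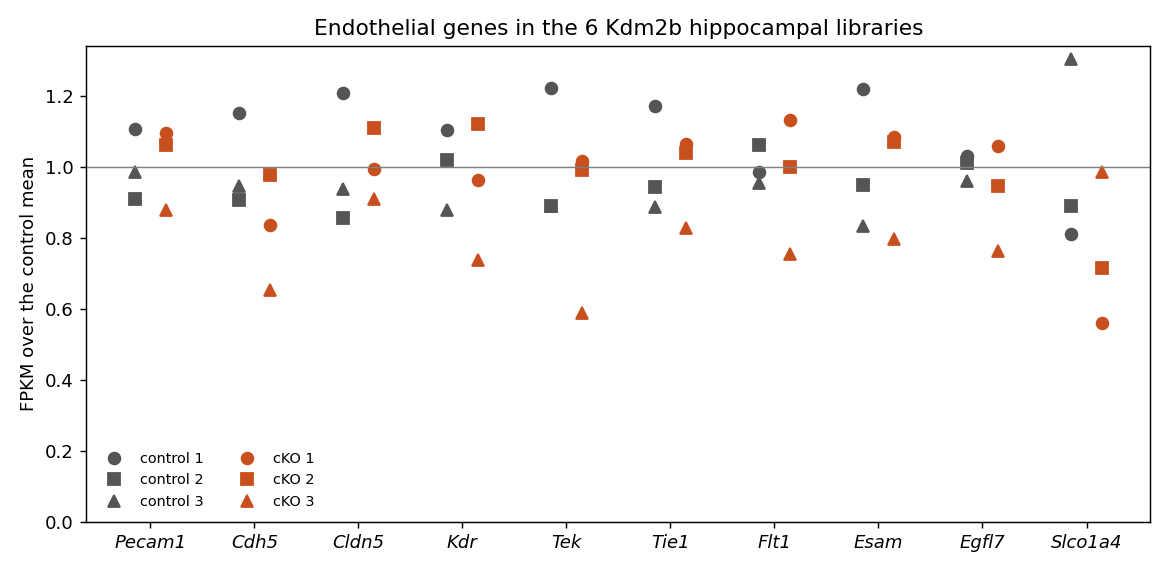
FPKM of each gene over its control mean (y axis, from 0) in the 6 *Kdm2b* hippocampal libraries; grey symbols are controls, orange symbols cKO, and the symbol gives the replicate. The third cKO library (orange triangle) is lowest for every gene but *Cldn5* and *Slco1a4*, and the groups overlap for each of the 10 genes.

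Few other genes of vessels were called in the cKO hippocampus. Of 24 further endothelial genes, all tested, 0 were called higher and 1 lower, *Tm4sf1*, a surface protein of endothelium that is not confined to it (6.36 to 4.02 FPKM, log2 fold change -0.55 ± 0.09, adjusted p = 0.00930), and their median was -0.05. *Ramp2*, the adrenomedullin co-receptor and the most abundant of them, had means of 22.0 and 23.0 FPKM. Among barrier genes, *Tnfrsf19*, which neural progenitors also express, was called higher (49.2 to 69.0 FPKM, 0.48, adjusted p = 0.00282) and 0 of 23 were called lower, while *Slc2a1*, *Mfsd2a* and *Apcdd1*, chosen after their values were seen, were not called, at 0.08, -0.07 and -0.01. *Slco1c1*, the thyroxine transporter of brain endothelium and astroglia, was above every control in each cKO library (29.7 to 38.2 FPKM, 0.35, adjusted p = 0.00456) without passing the fold threshold, and is named with its values known. Mural cell genes had 0 called higher and 1 lower of 14 tested, *Tagln* of smooth muscle (1.32 to 0.701 FPKM), and the pericyte genes *Rgs5* and *Vtn* were at 28.1 and 24.1, and 17.1 and 15.2 FPKM.

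Among ligands and receptors that act on endothelium, 4 genes were called. Of 16 ligand genes tested, 0 were called higher and 2 lower, *Sema3e*, a repellent of vessel sprouts (4.65 to 2.99 FPKM, -0.50, adjusted p = 0.0286), and *Ndp*, encoding norrin (4.62 to 3.09 FPKM, -0.46, adjusted p = 0.0338). Of the ligands under the fold threshold, named with their values known, *Wnt7a* (6.68 to 8.46 FPKM, 0.30, adjusted p = 0.0351), *Wnt7b* (20.5 to 27.3 FPKM, 0.39, adjusted p = 0.0566) and the Notch ligand *Dll4* (3.01 to 4.19 FPKM, 0.37, adjusted p = 0.0354) were higher in every cKO library than in every control. *Cxcl12* was lower in every cKO library (35.6 to 29.9 FPKM, -0.25, adjusted p = 0.0299). Of 17 receptor and co-receptor genes, 2 were called higher and 0 lower, *Cxcr4* (56.7 to 78.9 FPKM, 0.47, adjusted p = 0.00226) and the netrin receptor *Unc5b* (3.33 to 4.86 FPKM, 0.44, adjusted p = 0.0326). Neural cells of the newborn hippocampus express each of these 4 genes as well, so their cell of origin was not resolved. The 17 receptor genes summed to 354, 364 and 374 FPKM in controls and to 379, 393 and 385 in cKO. For 8 of the 17 every cKO library lay above every control, beside 14.9% of all genes, and for 0 below, beside 14.3%. Choroid plexus genes were higher in the first 2 cKO libraries, with sums of 63.0 and 45.4 FPKM against 9.76 in the third and 7.88 to 19.7 in controls, and 6 of 14 microglia and macrophage genes were called higher, such as *C1qb* (16.4 to 24.9 FPKM). The part of either in the values of the 10 genes was not tested. Of 12 hypoxia response genes tested, 1 was called higher (*Egln3*, 0.50) and 1 lower (*Ndrg1*, -0.58). By adjusted p under 0.05 in limma, 1 was higher and 3 lower. The whole list summed to 424, 415 and 421 FPKM in controls and to 381, 388 and 383 in cKO.

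In the cortex, endothelial genes were higher in cKO. All 9 genes tested had log2 fold changes above 0, with a median of 0.37 (all genes -0.01), and 4 of the 9 were called higher, *Cdh5*, *Cldn5*, *Egfl7* and *Tek*, beside 4.73% of 15691 genes called higher and 2.28% called lower. Both cKO libraries lay above both controls for all 9, beside 22% of all genes. None reached an adjusted p under 0.05 in this fit, as 0.427% of genes did, while 6 of the 9 had an unadjusted p under 0.05, beside 12.8% of genes. The summed level of the 10 genes was 45.8 and 43.2 FPKM in controls and 69.8 and 68.1 FPKM in cKO, a ratio of 1.55.

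*Cdh5* was at 2.45 and 3.06 FPKM in control and 5.57 and 5.20 in cKO cortices, from 227 and 273 reads against 460 and 409. The level in cKO was 1.96 times that in controls, with a log2 fold change of 0.77 ± 0.11 (SE, 95% confidence interval 0.48 to 1.06, adjusted p = 0.0959). *Cldn5* was at 25.6 and 23.9 against 39.8 and 40.9 FPKM, or 1.63 times the control level (0.68 ± 0.08, 0.49 to 0.88, adjusted p = 0.0577). For these 2 junction genes the gap between groups was more than 3 times the spread within either. *Esam* was at 3.85 and 3.27 against 4.53 and 4.42 FPKM, and *Pecam1*, here separate from *Polg2*, at 2.36 and 2.88 against 3.28 and 3.16 FPKM. Both lay higher in cKO by less than the fold threshold (0.27 ± 0.10 and 0.22 ± 0.11).

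*Egfl7* was at 3.86 and 2.77 FPKM in controls and 5.29 and 4.87 in cKO, 1.53 times higher (0.50 ± 0.14, adjusted p = 0.263). *Tek* was at 1.66 and 1.48 against 2.60 and 2.2 FPKM, also 1.53 times higher (0.41 ± 0.12, adjusted p = 0.261), and so lay just above the fold threshold. *Kdr* lay just under it, at 2.32 and 2.52 against 3.72 and 3.16 FPKM (0.37 ± 0.11, adjusted p = 0.264). *Tie1* was at 2.7 and 2.38 against 3.44 and 3.08 FPKM (0.27 ± 0.10). *Flt1* was at 1.00 and 0.913 against 1.52 and 1.09 FPKM (0.23 ± 0.14), with the second cKO library close to the controls. *Slco1a4* had 0 reads in both controls and 2 and 6 reads in cKO, which is no measurable level. By role, the summed junction genes were 1.59 times and the summed receptors 1.39 times the control level.

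The calls of *Cdh5* and *Cldn5* held whichever cortical library was left out, and those of *Egfl7* and *Tek* did not. Without the first cKO library 2 genes were called, *Cdh5* and *Cldn5*. Without the second control library *Egfl7* and *Tek* fell to 0.32 and 0.35, without the second cKO library the p of *Egfl7* rose to 0.0573, and *Kdr* was called without the second control or the second cKO library. A test on the recovered reads (limma-voom), which were whole for 100% of the values checked, called 1051 genes higher and 412 lower and gave 486 genes an adjusted p under 0.05. In it 6 of the 9 genes were called higher, and *Cdh5* (0.98, adjusted p = 0.00660) and *Cldn5* (0.71, adjusted p = 0.00483) passed after adjustment.

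**Figure D3:**
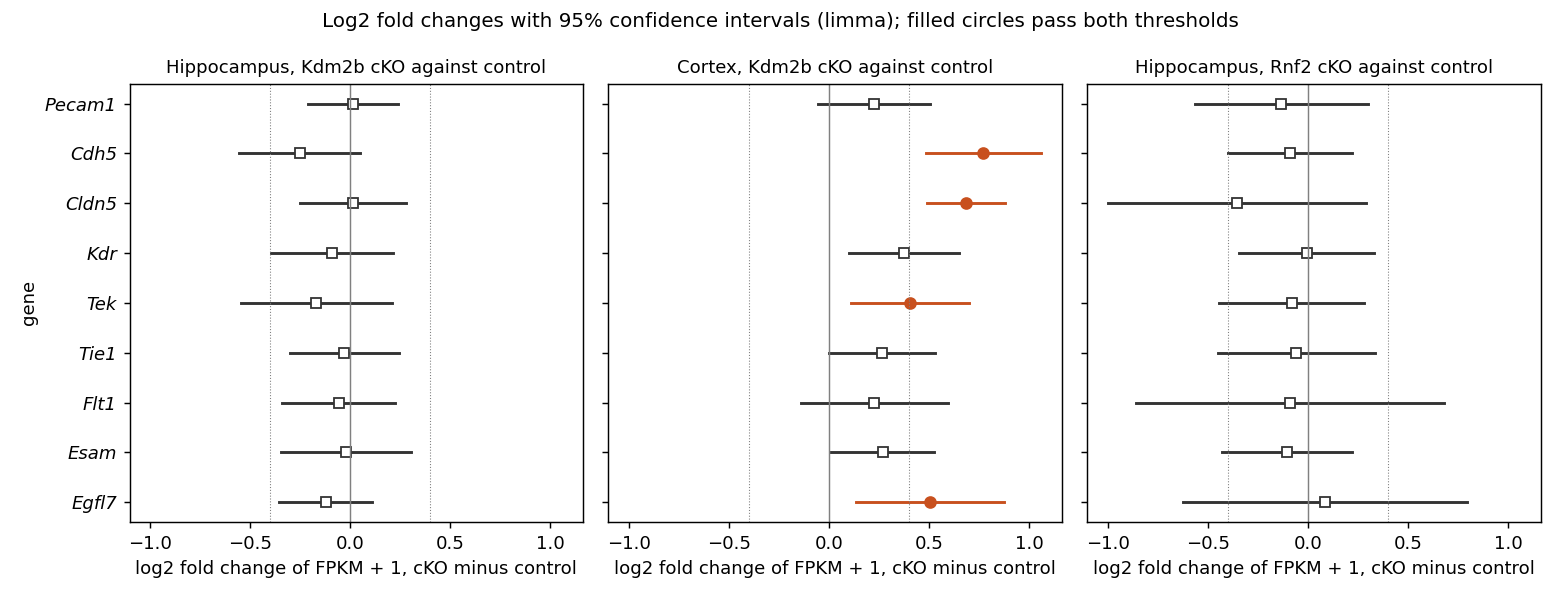
Log2 fold change of FPKM + 1, cKO minus control (x axis), of the 9 tested genes (y axis) in 3 tissue comparisons; lines are 95% confidence intervals from limma, dotted lines mark 0.4 and -0.4, and filled orange circles mark genes called. All 9 estimates lie above 0 in the cortex, where 4 are called, and none is called in either hippocampal comparison.

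Genes of other cell types moved with the endothelial genes in the cortex, and some moved further. All 14 meningeal fibroblast genes were higher in both cKO libraries than in both controls. Their sum was 3.87 and 4.99 FPKM in controls, with 1 gene at 0 in the first, and 58.6 and 38.4 FPKM in cKO, which is 13.2 and 8.67 times the control mean. *Dcn* (0.373 to 5.88 FPKM), *Lum* (0.265 to 5.09), *Aldh1a2* (0.0724 to 4.44) and *Col3a1* (0.350 to 7.32) are matrix and retinoic acid genes of the leptomeninges, and 11 of the 13 that passed the filter passed through the cKO libraries alone. Genes of the macrophages at the brain's borders were called higher too, in a list of which 7 of 12 tested were called and none lower. Of the 7, 3 (*Pf4*, *Mrc1* and *Lyve1*) passed the filter only through the cKO libraries, so that they had to differ, and without them 4 of 9 were called. *Pf4* went from 0.159 to 9.07 FPKM (log2 fold change 3.10, adjusted p = 0.0211), *Mrc1* from 0.131 to 3.11 and *Lyve1* from 0.0481 to 2.78, while *P2ry12* of microglia, named with its values known, was at 2.32 in controls and 1.67 in cKO. The list summed to 23.4 and 19.5 FPKM in controls and 57.7 and 41.0 in cKO. The meninges carry vessels of their own, and the part of this tissue in the higher endothelial values was not tested.

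Genes of blood and of the vessel wall moved by a factor close to that of the endothelium. The sums of barrier genes and of the ligands and receptors that act on endothelium moved less, with ratios of 1.20, 1.12 and 1.02. Such sums weigh abundant genes most. Gene by gene, 20 of 23, 12 of 16 and 13 of 16 tested lay above 0, with median log2 fold changes of 0.27, 0.19 and 0.16. Red blood cell genes summed to 437 and 455 FPKM in controls and to 716 and 627 in cKO, a ratio of 1.5, with 4 of 6 tested called higher (*Hba-a1*, *Hbb-bs*, *Hbb-bt* and *Hbb-y*; the near-identical alpha globin genes share reads). Mural cell genes summed to 46.2 and 45.8 against 74.6 and 64.7 FPKM, a ratio of 1.51, and 4 of 12 tested were called higher. They were *Vtn* (5.29 to 14.5 FPKM, 1.28), *Anpep* (0.267 to 1.10, 0.71), *Ndufa4l2* (1.98 to 3.34, 0.54) and *Rgs5* (16.1 to 22.8, 0.47), and *Anpep*, which is also a gene of fibroblasts, passed the filter only through cKO, so that 3 of 11 were called without it. The sum of 10 dorsal telencephalon genes was 0.975 of the control level, with 0 called higher and 1 lower, *Zbtb20* (5.32 to 3.59 FPKM). Choroid plexus genes were near 0, at 1.08 and 2 against 2.01 and 2.03 FPKM in sum.

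**Figure D4:**
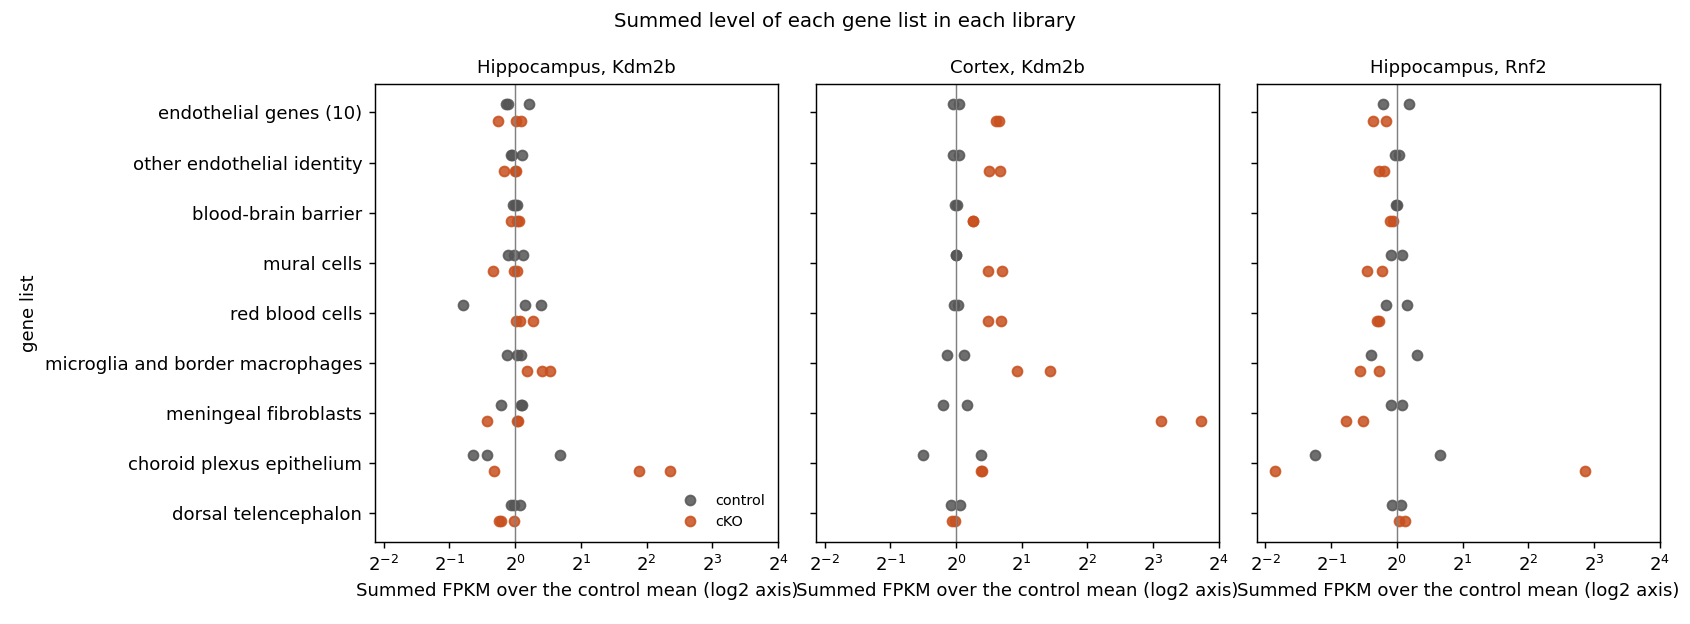
Summed FPKM of each gene list over its control mean (x axis, log2 scale) in each library of the 3 tissue comparisons; grey points are controls, orange points cKO. In the cortex the 10 endothelial genes of cKO lie at 1.57 and 1.53 times the control mean beside 13.2 and 8.67 times for meningeal fibroblast genes. In both hippocampal comparisons the sums of the 10 endothelial genes overlap between groups, while those of the other endothelial genes lie lower in *Rnf2* cKO than in controls.

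The other endothelial genes shared the direction of the 10 in the cortex. Of 22 tested, 22 lay above 0 (median 0.33), 8 were called higher and 0 lower, and over all 24 the cKO libraries lay above the controls for 23. Of the tested genes 2, *Vwf* and *Tm4sf1*, passed the filter only through cKO, and without them 20 of 20 lay above 0 and 7 were called. The largest were *Icam2*, a leukocyte adhesion molecule (0.812 to 2.13 FPKM, 0.79), *Tm4sf1* (0.272 to 1.11, 0.73), *Ramp2* (2.21 to 4.22, 0.70) and *Clec14a* (0.696 to 1.52, 0.57). Their sum was 32.8 and 30.6 FPKM in controls and 50.7 and 45.1 in cKO, a ratio of 1.51. The transcription factors of the endothelial lineage were lower in level, with *Fli1* called (0.656 to 1.26 FPKM, 0.45) and *Erg* and *Sox17* at 0.34 and 0.24 and not called; these 3 are named with their values known.

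Barrier genes were called in both directions, though most lay above 0. Of 23 tested, 5 were called higher and 1 lower, and 20 lay above 0 (median 0.27). Both cKO libraries lay above both controls for 17 and below both for 2, beside 22% and 22.8% of all genes. *Itm2a*, a membrane protein of barrier endothelium and of mesenchyme, was the single vessel-list gene outside the meningeal and macrophage lists with an adjusted p under 0.05 (14.8 to 32.2 FPKM, 1.07, adjusted p = 0.0376). *Plvap*, the diaphragm protein of leaky vessels, was at 0.596 and 1.17 FPKM (0.45), the glutamine transporter *Slc38a5* at 3.59 and 5.27 (0.45), the WNT target *Apcdd1* at 25.0 and 33.7 (0.42) and the glucose transporter *Slc2a1* at 13 and 17.5 (0.41). *Slco1c1* fell from 8.44 to 5.25 FPKM (-0.60 ± 0.15, adjusted p = 0.224), against the direction of the 10 genes. *Mfsd2a*, the lipid transporter that marks sealed vessels, was at 9.79 and 11.7 FPKM and was not called, and is named with its values known.

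Of 16 ligands tested in the cortex, 3 were called higher, *Cxcl12* (3.94 to 8.56 FPKM, 0.93), which meninges secrete, *Angpt2* (0.200 to 0.882, 0.65), the TIE2 ligand of sprouting vessels, and *Apln* (2.37 to 3.59, 0.44), made by tip cells. *Angpt2* was among 2 ligands that passed the filter only through cKO, and without these 2 of 14 were called higher. *Ndp* was called lower (2.75 to 1.42 FPKM, -0.65). The main VEGF gene, *Vegfa*, was at 20.2 and 21.0 FPKM (0.06), *Wnt7a* and *Wnt7b* lay above the controls by 0.19 and 0.23, and these 3 are named with their values known. Of 16 receptors, 4 were called higher and 1 lower. *Gpr124* and *Reck*, which together relay WNT7 signals to brain endothelium, went from 1.78 to 3.80 FPKM (0.78) and from 2.25 to 3.70 (0.53). The apelin receptor *Aplnr* (2.62 to 4.37 FPKM, 0.56) and *Acvrl1* (0.956 to 1.6, 0.41) were also called higher, and *Nrp1*, a VEGF co-receptor that neurons share, was called lower (16.9 to 12.3, -0.44). Of 13 hypoxia response genes, *Slc2a1* alone was called, and *Ldha* and *Pgk1* were at 70.6 and 72.5, and 83.4 and 86.1 FPKM.

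The effect of the *Kdm2b* deletion was then compared between hippocampus and cortex as the interaction of genotype and table. For all 9 genes the hippocampal log2 fold change was the smaller. For *Pecam1* and *Esam* the hippocampal side is the entry shared with *Polg2* or *Vsig2* and the cortical side the gene alone, so unlike entries are compared. *Cdh5* differed by -1.02 ± 0.20 (SE, 95% confidence interval -1.46 to -0.59, adjusted p = 0.0277), *Cldn5* by -0.67 ± 0.17 (adjusted p = 0.0940), *Egfl7* by -0.63 ± 0.18 (adjusted p = 0.144), *Tek* by -0.57 ± 0.24 and *Kdr* by -0.47 ± 0.20. Of the 9, 5 had an unadjusted p under 0.05, beside 14.1% of 10720 genes, and 1 an adjusted p under 0.05, beside 1.63%. The call of *Cdh5* was close to its threshold, since its adjusted p was 0.0537 with the replicate block and between 0.0524 and 0.129 without the first or the third hippocampal control, the first cortical control or either cortical cKO library. *Cldn5* (adjusted p = 0.0484) passed without the second hippocampal control and *Egfl7* (adjusted p = 0.0345) without the first cortical control. Dissection and table differ along with tissue here and cannot be told apart from it. The labels do not say whether the same animals gave both tissues. The summed meningeal genes stood at a ratio of 0.932 in the hippocampus beside 10.95 in the cortex.

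In *Rnf2* cKO hippocampi none of the 9 genes tested was called, beside 2.86% of 15764 genes called higher and 1.85% called lower, and no gene at all had an adjusted p under 0.05 (0%; with limma-voom, 4 genes). None of the 9 had an unadjusted p under 0.05, beside 7.11% of genes. The median was -0.09 (all genes -0.00024), 8 of the 9 lay below 0, and the sums were 90.5 and 68.4 FPKM in controls and 70.7 and 61.9 in cKO, a ratio of 0.835. *Cldn5* carried most of that difference. It was at 58.9 and 35.8 FPKM in controls and 40.9 and 31.2 in cKO, so that the groups overlapped (log2 fold change -0.35 ± 0.26, 95% confidence interval -1.0 to 0.29). Without the second control it was called lower (-0.70), and without the first its value was -0.002. The sum without *Cldn5* was 31.6 and 32.6 against 29.8 and 30.7 FPKM.

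*Cdh5* was the single gene whose groups did not overlap, at 4.98 and 5.41 against 4.78 and 4.87 FPKM, a small difference (-0.09 ± 0.12), beside 18.7% of all genes with every cKO library below and 19.5% with every cKO library above the controls. *Kdr* was at 5.80 and 6.71 against 5.86 and 6.58 FPKM and *Tek* at 3.23 and 2.96 against 2.67 and 3.08, with intervals of -0.34 to 0.33 and -0.44 to 0.28. *Pecam1* was at 3.47 and 4.79 against 3.44 and 3.85 FPKM, *Esam* at 5.15 and 4.73 against 4.31 and 4.74, and *Tie1* at 4.10 and 3.53 against 4.05 and 3.23. These 5 genes overlapped between groups. The 2 controls were far apart for *Flt1* (1.26 and 3.07 FPKM, cKO 1.58 and 2.16) and *Egfl7* (2.93 and 1.26, cKO 2.30 and 2.04), so their intervals (-0.86 to 0.68 and -0.62 to 0.80) held values of the size seen in the cortex. *Slco1a4* split by library and not by genotype, at 0.646 and 0.130 FPKM in controls and 0.849 and 0.145 in cKO, from 62, 13, 90 and 15 reads. Choroid plexus genes, summed, split in the same way (54.2 and 14.6 in controls, 250 and 9.51 FPKM in cKO), and their part in the *Slco1a4* values was not tested.

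Some vessel-adjacent genes were called lower in the *Rnf2* cKO. Meningeal fibroblast genes summed to 62.0 and 55.4 FPKM in controls and 34.2 and 41.1 in cKO, with 0 called higher and 4 lower of 12 tested (*Col3a1* -0.87, *Col1a1* -0.83, *Col1a2* -0.76 and *Lum* -0.61). The pericyte genes *Vtn* (16.7 to 11.1 FPKM, -0.56) and *Rgs5* (40.9 to 29.1, -0.48) were the 2 called of 12 mural genes. Of 24 further endothelial genes, 1 was called higher (*Tal1*, a factor of blood and endothelial precursors, 0.71) and 1 lower (*Sox7*, -0.64), and of 23 barrier genes 1 was called lower (*Itm2a*, 31.8 to 22.6 FPKM, -0.47). Of the 24, 18 lay below 0 (median -0.13), and they summed to 65.3 and 67.7 FPKM in controls and 55.3 and 58.3 in cKO. Barrier genes summed to 474 and 468 against 436 and 450 FPKM, and mural genes to 83.3 and 93.0 against 64.5 and 75.7. Red blood cell genes summed to 271 and 217 against 201.5 and 197 FPKM. Ligand and receptor sums stood at ratios of 0.991 and 1.02. *Calcrl* (-0.48), *S1pr1* (-0.46) and *Tspan12* (-0.41) were called lower among 17 receptors and *Sema3e* (-0.46) among 16 ligands. The effects of both deletions on hippocampal endothelial genes were not shown to differ, since 0 of the 9 passed the interaction test at an adjusted or unadjusted p under 0.05 (beside 0.647% and 15.5% of 11278 genes), with intervals such as -0.60 to 0.27 for *Cdh5* and -0.23 to 0.97 for *Cldn5*. For *Pecam1* and *Esam* unlike entries are compared here too, the *Kdm2b* side being shared with *Polg2* or *Vsig2*.

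The genes also differed in how closely they ran together. Over the 14 tissue libraries, each table centred on its own mean, *Tek* followed the mean of the other 8 tested genes most closely (r = 0.95), then *Cdh5* (0.87), *Esam* (0.86), *Kdr* (0.85) and *Tie1* (0.84), while *Cldn5* (0.63), *Pecam1* (0.61), *Egfl7* (0.57) and *Flt1* (0.31) followed it less. Of 10535 genes, the 8 whose pattern was most like the mean of the 9 were *Bgn* (biglycan, r = 0.94), *Gja4* (the arterial connexin 37, 0.91), *Lamc3* (a laminin chain, 0.90), *Postn* (periostin, 0.89), *Col18a1* (a basement membrane collagen, 0.88), *Slc7a5* (the amino acid transporter of the barrier, 0.88), *Col1a2* (0.87) and *Cnn2* (a calponin, 0.87). After the 2 libraries farthest from the median, the third hippocampal cKO and the first cortical cKO, were left out, r ranged from 0.82 (*Slc7a5*) to 0.93 (*Bgn*) for the 8. These r describe 14 points that share tables, genotype and dissection, and several of the 8 are genes of fibroblast matrix. For *Kdm2b* hippocampi the *Pecam1* and *Esam* values are the entries shared with *Polg2* and *Vsig2*. The part of these neighbours in r was not tested.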

How the data were processed

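Gene levels of 18 mouse libraries were taken from 4 tables of FPKM as deposited. Per the study's methods, the authors trimmed the reads, aligned them to mm10 with STAR and computed the FPKM with Cufflinks (version 2.2.1) for hippocampi and neurospheres, and the submitters' processing notes name the same tools for cortices and *Rnf2* hippocampi. Entries naming several genes numbered 1092 in hippocampi and 810 in neurospheres, but 0 in cortices and *Rnf2* hippocampi. Like quantification of the 4 tables was therefore not established. The 10 endothelial genes and the lists of other genes were chosen with earlier results of these data known. Of the entries that hold a name, also joined with a neighbour's, the one of highest mean was kept. Entries with no gene name (2861 in hippocampi, 2059 in neurospheres and 140 in cortices) were left out, and they held 29.3% of the FPKM of the first neurosphere control library.

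Groups came from the labels. Within each table, log2(FPKM + 1) was fitted, for genes whose mean FPKM reached 0.5, by limma 3.58.1 (R 4.3.3, two-sided, trended variance), cKO against control, and calls needed both a log2 fold change larger than 0.4 in either direction and p below 0.05 before adjustment. Benjamini-Hochberg adjusted p cover all genes tested. Differences between tables were tested as interactions over the genes tested in both. Named besides the 10 genes were, per list and comparison, up to 4 called genes in each direction by size, with the 2 of highest level where fewer than 2 were called, *Kdm2b*, *Rnf2* and the 8 genes of most similar pattern; exceptions are marked, and 1 gene of the barrier list is not reported here. For cortices and *Rnf2* hippocampi, where FPKM times the deposited gene length moves in steps of 1 read, reads were recovered (100% of values under 200 reads whole within 0.02) and fitted with limma-voom as an alternative. The fits were tested on simulated data. Alternatives changed the pseudocount, filter, scaling, variance model, thresholds, entries summed per name, replicate block and libraries left out. Depth is unknown for the other tables. Intervals and floors on reads cover counting error only.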

Additional observations from a re-analysis of the deposited data

Results flagged for a closer look

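*Cdh5* was flagged because the effect of the *Kdm2b* deletion on it differed between tissues, by a test of the difference itself. Its log2 fold change was -0.25 in the hippocampus and 0.77 in the cortex, a difference of -1.02 ± 0.20 (SE, adjusted p = 0.0277 in limma). The call was lost with the replicate block (adjusted p = 0.0537 in limma) and without the first or the third hippocampal control, the first cortical control or either cortical cKO library (adjusted p from 0.0524 to 0.129 in limma). Cortical cKO libraries were above both controls, and 2 of the 3 hippocampal cKO libraries were below every control. The meningeal fibroblast genes that stood 13.2 and 8.67 times above the control mean in the 2 cortical cKO libraries are given beside the result in the report, and their part in it was not tested.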

How the results depend on the processing

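Of 231 alternatives of counts, medians and summed ratios, 215 stayed within tolerance and 16 moved. In the cortex the median log2 fold change of the genes was 0.49 with a pseudocount of 0.1 and 0.51 with limma-voom, and the summed ratio was 1.51 after rescaling to equal totals and 1.51 to 1.597 with a library left out. The number called higher there was 0 with an adjusted p and 2 to 4 with a library left out. It was 0 to 1 in neurospheres, and 0 to 1 were called lower in *Rnf2* hippocampi, with a library left out. For hippocampus against cortex, 5 genes differed by unadjusted p, and 0 to 2 with a library left out.

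Replicate numbers are shared between groups. Deviations of same-numbered libraries correlated at 0.05, -0.10 and -0.09 in hippocampi, -0.28 in neurospheres, -0.05 in cortices and 0.16 in *Rnf2* hippocampi. The *Rnf2* value lay above the pairing correlation of 0.1 that was set, and the others did not. In the main fits the numbers were not taken as pairs in any table, so a pairing of *Rnf2* libraries is not accounted for there. With the replicate block 0 genes were called in hippocampi, neurospheres and *Rnf2* hippocampi, and 4 in cortices. With it 0 differed between hippocampus and cortex (*Cdh5* adjusted p = 0.0537 in limma). The crossed pairing in neurospheres, chosen after seeing the data as were the alternatives of the interaction that leave out a library or add the block, called 0 genes.

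Signs of small values turned. *Esam* in hippocampi was 0.00066 after rescaling to equal totals. With a hippocampal library left out, the log2 fold changes ranged from -0.046 to 0.10 for *Pecam1*, -0.088 to 0.16 for *Cldn5*, -0.21 to 0.053 for *Kdr*, -0.27 to 0.014 for *Tek*, -0.098 to 0.073 for *Tie1*, -0.16 to 0.074 for *Flt1*, -0.13 to 0.12 for *Esam* and -0.22 to 0.00044 for *Egfl7*. *Egfl7* ranged from -0.078 to 0.89 in neurospheres. In *Rnf2* hippocampi the ranges were -0.32 to 0.055 for *Pecam1*, -0.096 to 0.084 for *Kdr*, -0.18 to 0.070 for *Tie1*, -0.51 to 0.33 for *Flt1* and -0.31 to 0.49 for *Egfl7*. The cause was not tested. With 2 or 3 libraries a group, a fit without 1 of them assumes that a lone library varies like the other group.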
